A study of Homo sapiens with 4 samples.

Results

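Most RNF and TRIM genes encode ubiquitin ligases, and the mRNAs of these families were examined in m6A-seq libraries of irradiated HEK293T cells. Members were all gene symbols made of RNF or TRIM, a number and at most 1 further letter, and their counts were summed over the transcripts of each gene. Of the 14911 genes listed in at least 1 library, 129 were members, 76 RNF and 53 TRIM genes. A mean count of 50 or more across the 4 libraries was reached by 5320 genes, and 58 of them were members, 33 RNF and 25 TRIM genes. The study asked how the m6A demethylase ALKBH5 acts in the response to X-ray damage, and m6A-seq compared cells with and without ALKBH5 knockdown. HEK293T cells stem from human embryonic kidney and express SV40 large T antigen. The shCTL group holds HEK293T cells with a control short hairpin RNA, and the shA5 group holds HEK293T cells with a short hairpin RNA against ALKBH5, both delivered by lentivirus. All groups were exposed to X-rays, so no unirradiated cells were compared, and the labels give neither the dose nor the time to harvest. The study's methods state an X-ray dose and several harvest times, but not which time these libraries come from. Each group had an input library of fragmented poly(A) RNA and a library of the fragments bound by an antibody against m6A (m6A-IP), 1 library of each kind. No value below therefore has a replicate, members do not stand in for replicates, and the difference between the populations cannot be told apart from a difference between 2 cultures or library preparations.

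Ubiquitin is passed from an activating enzyme (E1) to a conjugating enzyme (E2), and a ligase (E3) then places it on a chosen protein, which may be degraded, moved or turned into a docking site. Most RNF proteins carry a RING finger that holds the charged E2. Most TRIM proteins join the RING finger to B-boxes, a coiled coil and a C-terminal domain that often picks the target. At broken DNA, RNF8 and RNF168 mark chromatin with ubiquitin, while other members act in innate immunity, in the endoplasmic reticulum or on stalled ribosomes.

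The RRACH sequence (R stands for A or G and H for any base but G) is the setting in which the m6A writer complex methylates the central A, and m6A is common near stop codons. The windows below show the coding RRACH site nearest the stop codon in selected members. These are the 3 with the highest and the 3 with the lowest enrichment, by the mean of shCTL and shA5, and RNF10. RNF10 had the largest change of enrichment among members over all transcripts. Capitals mark the site.
RNF26: catcctgcAGACCctcaatgt
TRIM52: aaagttggAAACAactctggt
TRIM21: ggaggaaaAAACAcagcccct
RNF125: aatcactcGAACAccacataa
TRIM25: ttcagggtGGACTttactgag
RNF114: gatgaagaGGACAtgatgaat
RNF10: aaaaacagAAACAgaagctcc
All are on the transcribed strand in hg38 with Gencode release 44, with the site in coding sequence of the last exon, and distances run from the central A of the site to the stop codon. The RNF26 window lies at chr11:119336394-119336414 on the plus strand, in the single exon of the gene, with the central A 18 bases from the stop codon. The TRIM52 window lies at chr5:181257469-181257489 (minus strand, exon 2 of 2, 63 bases from the central A to the stop codon). The TRIM21 window lies at chr11:4385336-4385356 (minus strand, exon 7 of 7, 59 bases). Among the low members, the RNF125 window lies at chr18:32068364-32068384 (plus strand, exon 6 of 6, 8 bases), and its last bases are the stop codon. The TRIM25 window lies at chr17:56891766-56891786 (minus strand, exon 9 of 9, 74 bases), and the RNF114 window at chr20:49952088-49952108 (plus strand, exon 6 of 6, 41 bases). The RNF10 window lies at chr12:120576614-120576634 (plus strand, exon 17 of 17, 40 bases). High and low members alike thus hold a coding RRACH site whose central A is within 74 bases of the stop codon, and the counts, which are sums over whole transcripts, do not say which site carries m6A.

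In shCTL the input held 2237819 counts and the m6A-IP 3944402, and in shA5 these were 1311390 and 3148119, so the shA5 input was the shallowest. Counts were scaled by the library total (CPM), and 0.5 CPM was added before taking log2. Enrichment for m6A means log2 of m6A-IP over input. Its change subtracts the value in shCTL from that in shA5, and the change of input RNA compares the inputs in the same direction. Each library was scaled to its own total, so enrichment and its change are relative to the other transcripts of a library. Depleted thus does not mean free of m6A, and a shift of m6A shared by all genes would not show. A member counts as higher or lower when it passes 1.5-fold. Exact 95% intervals are given in parentheses and cover counting error alone, since reads without molecular identifiers are not independent molecules. The floor of 3 counts equals 1.34, 0.761, 2.29 and 0.953 CPM in the order of libraries above. ALKBH5, the targeted gene, had 486 input and 1432 m6A-IP counts in shCTL, and 145 and 589 in shA5. Its input was lower in shA5 by log2 -0.97 (-1.25 to -0.70), which fits the labels, while its m6A enrichment was 0.74 in shCTL and 0.76 in shA5.

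As a check of the cell line, all 7 markers fixed for HEK293T were listed, and none of the 7 markers of blood, liver, endothelial, connective tissue or muscle cells was. NEFL had the most input counts of the HEK293T markers, 179 in shCTL and 83 in shA5. LIN28B had 74 and 28, and KRT8 had 48 and 27. PAX2 had no input count and was listed by 1 m6A-IP count in shCTL alone. KRT18 had 11 and 4 input counts, VIM 4 and 2, and NEFM 3 and 2, so several of the 7 were near the floor. Some genes known for abundant mRNA, picked after their values were seen, were also low: GAPDH had 78 and HSPA8 16 input counts in shCTL, against 12431 for NCL. The study's methods name StringTie for gene quantification, but not how reads shared between transcripts or gene copies were assigned, so a low count need not mean a scarce mRNA.

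Members took 0.680% of all input counts in shCTL and 0.670% in shA5, and 0.725% and 0.783% of all m6A-IP counts. The 58 members with enough counts carried 94.0 to 96.0% of the members' counts in each library. Of the 71 other members, 29 had a mean of at least 10 counts and 42 had fewer, and 16 of the 129 had at most 3 counts in every library. RNF183, TRIM10, TRIM22, TRIM50 and TRIM55 had a single count in 1 library each. The annotation holds 157 coding genes whose symbols follow the rule, and 29 of them were listed in no library. A member with a strong m6A-IP signal passes a mean over all libraries more easily, so the 58 are not a picture of all 129.

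Input levels were compared between members as CPM per kb of transcript. RNF126, a cytosolic ligase for misplaced membrane proteins, was highest at 267 CPM per kb of input in shCTL and 231 in shA5. TRIM73, a copy in the TRIM50 family, had 123 and 131, and RNF187, a coactivator of AP-1, had 126 and 105. RNF25, which acts at stalled ribosomes, had 100 and 115, and RNF113A, a spliceosome protein, had 96.2 and 103. The lowest mean of both inputs among the 58 was that of TRIM38 at 2.52 CPM per kb, and the median was 19.8. The main transcripts of the 5 highest were all shorter than 3518 bases, the median length of members. TRIM73 shares 88.4% of its 25-base stretches with other genes, 57.7% with TRIM74, so its level is uncertain.

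Members were spread over a wide range of m6A enrichment in both populations. In shCTL, 10 of 58 members (17.2%) had at least 1.5-fold more m6A-IP than input, beside 22.5% of all genes with enough counts, and 15 (25.9%) had at least 1.5-fold less, beside 30.3%. In shA5, 12 members (20.7%) were enriched, beside 24.3% of all genes, and 14 (24.1%) were depleted, beside 31.7%. These shares were all somewhat below those of all genes. With a mean count of 200 or more, 8 of 25 members were enriched in shCTL and 10 in shA5, beside 29.1% and 31.0%. Depleted at that filter was 1 of 25 in each population, beside 21.7% of all genes in shCTL and 23.7% in shA5. The median enrichment of members was -0.20 in shCTL and 0.06 in shA5, and that of all genes -0.11 and -0.10. With a mean count of 200 or more, the medians of the remaining 25 members became 0.33 and 0.50, and those of the 2491 genes left 0.12 and 0.16. With a mean count of 10 or more, the median of all genes in shCTL was -0.25. The filter includes the m6A-IP counts that also enter enrichment, so genes with more m6A-IP pass a stricter filter more easily. Enriched in both populations were 8 of the 58 members, beside 996 of the 5320 genes, and depleted in both were 13, beside 1400 of all genes. TRIM members had a higher median (0.19 in shCTL and 0.37 in shA5, 25 genes) than RNF members (-0.39 and -0.19, 33 genes).

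**Figure D1:**
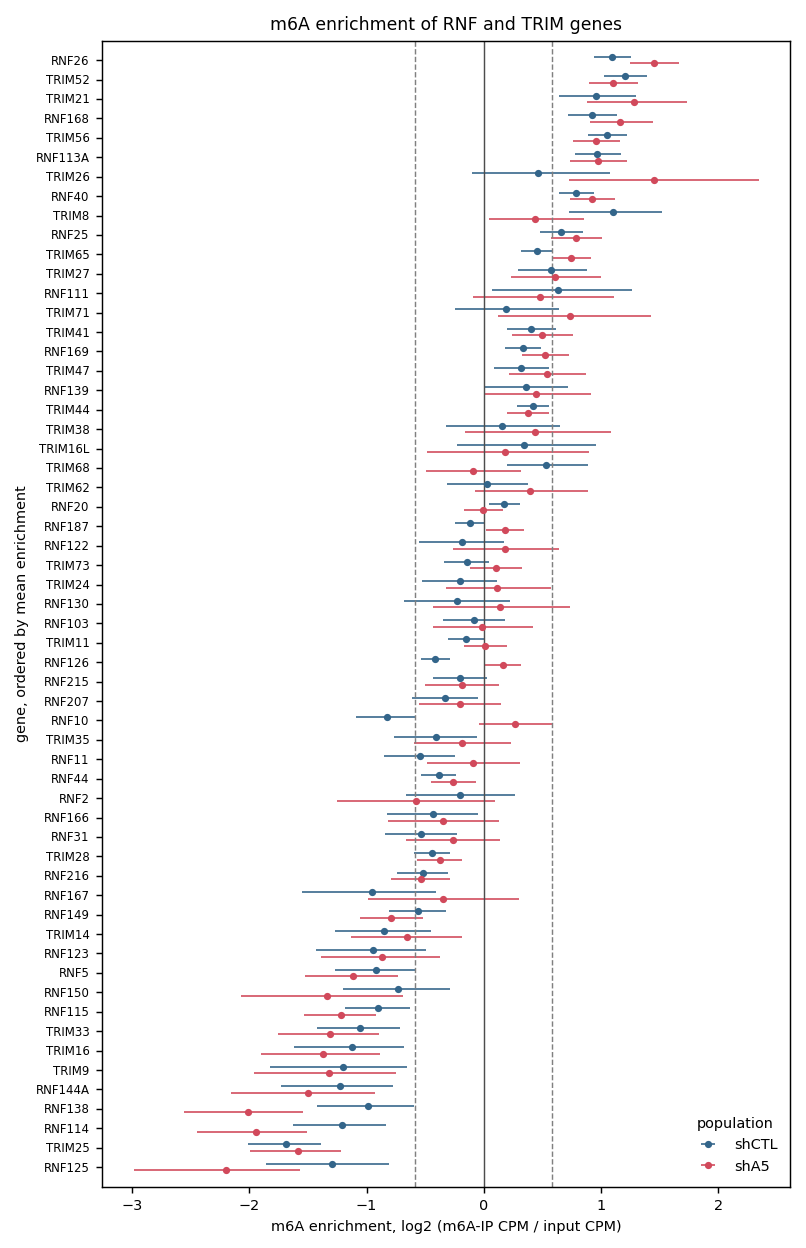
m6A enrichment (log2 of m6A-IP over input CPM) of the 58 members in shCTL (blue) and shA5 (red), ordered by the mean of both; bars are exact 95% counting intervals and dashed lines mark 1.5-fold. RNF26 is at the top and RNF125 at the bottom, and RNF10 is the member whose points lie farthest apart.

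Among the highest members, RNF26, a ligase of the endoplasmic reticulum membrane, had 407 input and 1536 m6A-IP counts in shCTL, and 220 and 1450 in shA5. Its enrichment was 1.10 (0.94 to 1.26) in shCTL and 1.45 (1.25 to 1.67) in shA5. Both m6A-IP libraries thus stood well above their inputs for this single-exon gene. TRIM52, a RING and B-box protein without a long C-terminal domain, had 308 and 1255 counts in shCTL, and 230 and 1185 in shA5. Its enrichment of 1.21 (1.03 to 1.39) in shCTL was close to the 1.10 (0.90 to 1.31) in shA5. TRIM21, the cytosolic receptor for antibodies, had 101 and 347 counts in shCTL, and 55 and 324 in shA5. The m6A-IP was again the higher library in both populations, with an enrichment of 0.96 (0.64 to 1.30) and 1.28 (0.88 to 1.73). RNF168, which spreads ubiquitin on chromatin around DNA breaks, had 244 and 817 counts in shCTL, and 138 and 745 in shA5. Its enrichment was 0.92 (0.72 to 1.14) and 1.17 (0.91 to 1.44), and the intervals overlap. TRIM56, an antiviral ligase, had 364 and 1332 counts in shCTL, and 257 and 1199 in shA5, an enrichment of 1.05 (0.89 to 1.23) and 0.96 (0.76 to 1.16). The intervals of neighbours in this order overlap, so neighbours were not told apart at this depth.

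The lowest members had various roles. RNF125, which marks RIG-I for degradation, had 77 input and 54 m6A-IP counts in shCTL, and 54 and 27 in shA5. Its enrichment was -1.30 (-1.86 to -0.81) in shCTL and -2.20 (-2.99 to -1.57) in shA5. TRIM25, which activates RIG-I, had 245 and 133 counts in shCTL, and 129 and 102 in shA5. It was about equally depleted in both, at -1.68 (-2.01 to -1.39) and -1.59 (-1.99 to -1.22). RNF114, a ligase gene linked to psoriasis, had 129 and 97 counts in shCTL, and 103 and 63 in shA5, an enrichment of -1.21 (-1.62 to -0.84) and -1.95 (-2.45 to -1.51). RNF138, which acts in the resection of broken DNA ends, had 107 and 94 counts in shCTL, and 91 and 53 in shA5, an enrichment of -0.99 (-1.42 to -0.59) and -2.01 (-2.56 to -1.54). The m6A-IP was below the input, scaled to depth, in all 4 of these genes. RNF144A, a RING-between-RING ligase for the kinase DNA-PKcs, had 89 and 66 counts in shCTL, and 52 and 43 in shA5. Its enrichment was -1.22 (-1.73 to -0.77) and -1.50 (-2.16 to -0.93), and these intervals overlap.

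**Figure D2:**
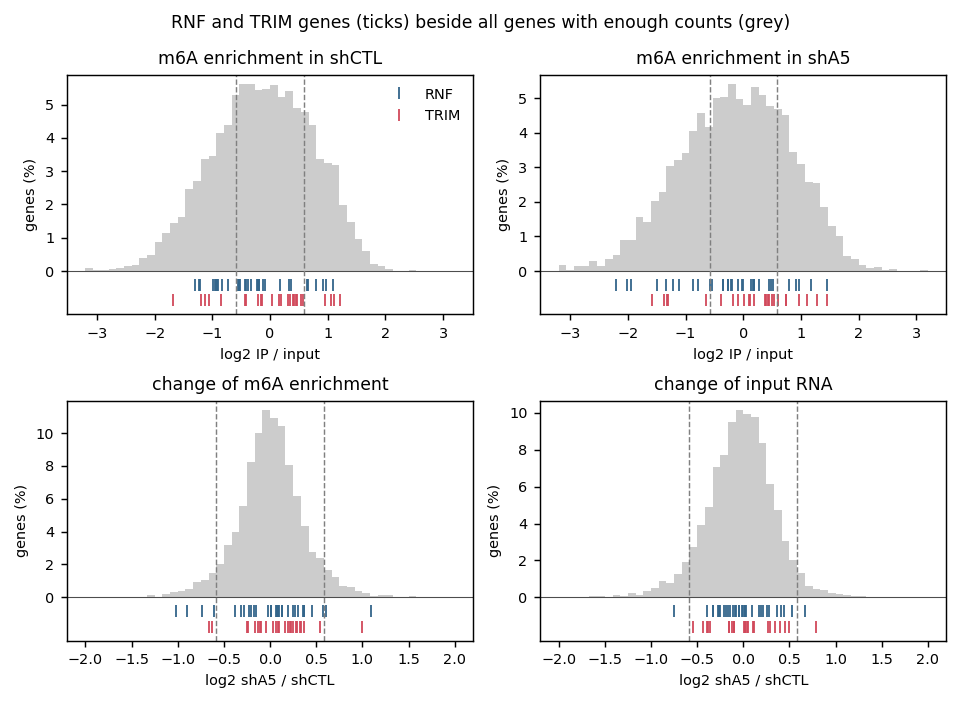
Distribution over the 5320 genes with enough counts (grey, percent of genes; values beyond the axis are in the outermost bars) of m6A enrichment in shCTL and shA5, its change and the change of input RNA, with each RNF (blue) and TRIM (red) gene as a tick; dashed lines mark 1.5-fold. The ticks cover most of the grey range, and RNF10 and TRIM26 are the rightmost ticks for the change of enrichment.

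Of the 15 members fixed as a DNA damage and chromatin list, 14 were listed and 12 had enough counts. In shCTL 4 of the 12 were enriched and 2 depleted, beside 22.5% and 30.3% of all genes. In shA5 3 were enriched and 2 depleted, beside 24.3% and 31.7%, and the medians were -0.01 in shCTL and 0.14 in shA5. Enriched in both were RNF168, RNF40 and RNF113A. RNF40 forms with RNF20 the ligase for histone H2B, and RNF40 had 464 input and 1414 m6A-IP counts in shCTL, and 278 and 1265 in shA5. Its enrichment was 0.79 (0.64 to 0.94) in shCTL and 0.92 (0.73 to 1.12) in shA5. RNF20, its partner, was near 0, with 0.17 (0.04 to 0.31) and 0.00 (-0.17 to 0.17), from 690 and 1373 counts in shCTL and 409 and 979 in shA5. The partners of this complex thus differed in enrichment in both populations, by more than their counting intervals. RNF40 overlaps an antisense gene over 2096 of its 5309 bases and RNF20 overlaps none, so the counts of RNF40 are less certain. RNF113A, also linked to the repair of alkylated DNA, had an enrichment of 0.97 (0.78 to 1.17) and 0.97 (0.74 to 1.22). RNF169, a relative of RNF168 that binds ubiquitylated chromatin, had 0.33 (0.18 to 0.48) and 0.52 (0.33 to 0.72). RNF111, which acts on SUMO-marked proteins and in TGF-beta signalling, was past 1.5-fold in shCTL at 0.63 (0.07 to 1.26), and had 0.48 (-0.09 to 1.11) in shA5. RNF2, the Polycomb ligase for histone H2A, had -0.20 (-0.67 to 0.27) and -0.58 (-1.26 to 0.09). With main transcripts alone, RNF111 was also enriched and RNF2 also depleted in shA5. A pseudocount of 0.1 CPM likewise put RNF2 among the depleted in shA5.

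Of the chromatin TRIM proteins with a PHD finger and bromodomain, 3 had enough counts. TRIM33, which works with SMAD proteins, had 150 input and 126 m6A-IP counts in shCTL, and 95 and 91 in shA5, an enrichment of -1.06 (-1.42 to -0.72) and -1.31 (-1.76 to -0.90). TRIM28, the corepressor of KRAB zinc finger proteins, had 642 and 833 counts in shCTL, and 345 and 637 in shA5, an enrichment of -0.44 (-0.59 to -0.29) and -0.38 (-0.57 to -0.19). TRIM24, a histone reader and p53 ligase, had -0.21 (-0.52 to 0.11) and 0.11 (-0.32 to 0.57). Only TRIM33 of these 3 passed 1.5-fold, in both populations, beside 30.3% and 31.7% of all genes. RNF4, a SUMO-targeted ligase, and RNF8, which acts before RNF168, were under the count filter. RNF4 had 52 input and 28 m6A-IP counts in shCTL, and 30 and 33 in shA5, and RNF8 had 35 and 47, and 28 and 45. TRIM29 was listed in no library.

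Other lists fixed by domain or place in the cell were small. Of 22 members of the endoplasmic reticulum and other membranes, 9 had enough counts, with medians of -0.23 in shCTL and -0.02 in shA5. RNF26 was the only one of these 9 enriched in either population, beside 22.5% of all genes in shCTL and 24.3% in shA5. In each population 3 were depleted, beside 30.3% and 31.7%. RNF5, a quality-control ligase of the endoplasmic reticulum, had 151 input and 140 m6A-IP counts in shCTL, and 103 and 113 in shA5, an enrichment of -0.92 (-1.27 to -0.59) and -1.12 (-1.53 to -0.73). It shares 32.5% of its 25-base stretches with the pseudogene RNF5P1. Of 8 RING-between-RING ligases 3 had enough counts, RNF144A, RNF216 and RNF31. All 3 were below 0 in both populations, as were 2900 of the 5320 genes in shCTL and 2855 in shA5. Over all transcripts RNF144A alone passed 1.5-fold, and with main transcripts alone RNF31 was also depleted in shCTL. RNF31, which builds linear ubiquitin chains, shares 98.6% of its stretches with a readthrough gene without a name, so its counts are uncertain. Of 31 TRIM genes classed by a RING finger, B-box, coiled coil and SPRY domain 12 had enough counts, with medians of 0.36 in shCTL and 0.47 in shA5. These medians leave out TRIM9, TRIM14, TRIM16 and TRIM16L, which carry a SPRY domain but were not put in this class. Of them TRIM9, TRIM14 and TRIM16 were depleted in both populations, TRIM9 in neither with main transcripts alone. In shCTL 1 of these 12 was enriched (TRIM21) and 1 depleted (TRIM25), beside 22.5% and 30.3% of all genes. In shA5 4 were enriched and 1 depleted, beside 24.3% and 31.7%. TRIM26, TRIM27 and TRIM65 were the further enriched genes in shA5. TRIM27 had 0.58 in shCTL, just under the threshold, and 0.60 in shA5, so its calls differ while its values hardly do. With main transcripts alone, TRIM26 and TRIM27 were enriched in shCTL as well. TRIM65 had 616 and 1487 counts in shCTL and 363 and 1463 in shA5, an enrichment of 0.45 (0.32 to 0.59) and 0.75 (0.58 to 0.92). Of the TRIM genes with NHL repeats, 1 had enough counts (TRIM71), and of those with a COS box also 1 (TRIM9).

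The change of m6A enrichment between the populations was past 1.5-fold upward in 3 of 58 members (5.17%), beside 5.38% of all genes, and downward in 6 (10.3%), beside 5.09%. The upward share was near that of all genes, and the downward share rests on 6 genes. The balance depends on the count filter. With a mean count of 10 or more, 12 of 87 members were higher and 11 lower, beside 12.6% and 13.0% of all genes. With 200 or more, 1 of 25 was higher and 0 lower, beside 1.65% and 1.08%. Without a filter, among genes with more than 3 counts in at least 1 library, 23 of 113 were higher and 18 lower, beside 18.9% and 18.3%. The median change of members was 0.09, beside 0.00 for all genes, and 37 members were above 0 and 21 below, beside 2684 and 2636 of all genes. The interval of the change included 0 in 47 of the 58 members, lay above 0 in 6 and below 0 in 5. Scaling to library totals removes a shift shared by all genes, so 0.00 does not speak to the overall level of m6A. The paper reports a higher abundance of m6A peaks after knockdown, which these values do not address. Without the 25 members that overlap another gene the median change of members was 0.01.

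**Figure D3:**
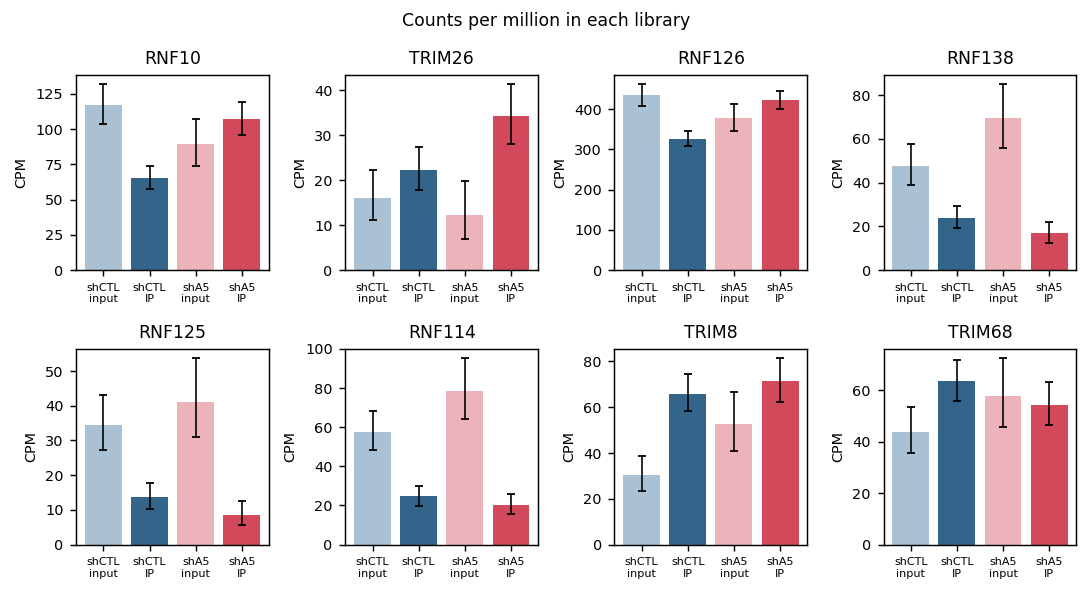
CPM in each of the 4 libraries (input and m6A-IP of shCTL, then of shA5) for 8 of the members with the largest changes of enrichment, 3 upward (RNF10, TRIM26, RNF126) and 5 downward; bars are single libraries and error bars exact 95% Poisson intervals. In RNF10 the m6A-IP is below the input in shCTL, and the error bars overlap in shA5, and in RNF138 the m6A-IP is below the input in both and lower in shA5.

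RNF10, which ubiquitylates small ribosomal subunits on stalled ribosomes, had the largest increase over all transcripts, and with main transcripts alone TRIM26 (1.22) was ahead of RNF10 (1.11). It had 117 CPM of input and 65.7 CPM of m6A-IP in shCTL (262 and 259 counts), and 89.2 and 107 CPM in shA5 (117 and 338 counts). The m6A-IP was below the input in shCTL, and in shA5 its enrichment of 0.27 (-0.04 to 0.58) was not resolved from 0. From shCTL to shA5 the m6A-IP was higher and the input lower. The change of enrichment was 1.10 (0.70 to 1.51), an interval wholly past 1.5-fold. TRIM26, an antiviral gene in the major histocompatibility region, had 36 input and 88 m6A-IP counts in shCTL, and 16 and 108 in shA5. With so few input counts its change of 0.99 has an interval from 0.02 to 2.06. RNF167, a ligase of endosomes and lysosomes, had 57 and 51 counts in shCTL, and 33 and 62 in shA5, a change of 0.61. Its counting interval includes 0, and with a pseudocount of 2 CPM the change was 0.56, under the threshold. RNF126 came next with 973 and 1288 counts in shCTL, and 495 and 1329 in shA5. Its change of 0.57 (0.38 to 0.77) was just short of 1.5-fold and reached 0.59, past it, with edgeR TMM factors. TRIM71, a repressor of mRNAs in early development, had 65 and 131 counts in shCTL, and 26 and 105 in shA5, a change of 0.55 (-0.23 to 1.37), which was not detectable at this depth.

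The 3 largest decreases were in genes that already had less m6A-IP than input in shCTL. RNF138 had a change of -1.02 (-1.71 to -0.37), or -0.87 with its main transcript alone, with 47.8 CPM of input and 23.8 CPM of m6A-IP in shCTL, and 69.4 and 16.8 CPM in shA5. RNF125, which is then the lowest, had a change of -0.90 (-1.83 to -0.05), and RNF114 one of -0.73 (-1.37 to -0.12). In all 3 the input was higher and the m6A-IP lower in shA5 than in shCTL, though the m6A-IP differences of RNF125 and RNF114 and the input difference of RNF125 were not resolved by their counts. RNF125 and RNF138 lie next to each other on chromosome 18 (chr18:32018825-32073219 and chr18:32091874-32131561, plus strand, hg38), and exons of an unnamed gene on the same strand overlap both, over 539 and 26 bases. TRIM8, a regulator of NF-kB signalling, differed in pattern. It had 68 input and 260 m6A-IP counts in shCTL, and 69 and 225 in shA5, a change of -0.67 (-1.25 to -0.10). Its m6A-IP differed little, at 65.9 and 71.5 CPM, while its input was 30.4 CPM in shCTL and 52.6 CPM in shA5. TRIM68, a coactivator of the androgen receptor, had 98 and 251 counts in shCTL, and 76 and 171 in shA5, a change of -0.63 (-1.17 to -0.09). RNF150, a membrane ligase, was the 6th with -0.61 (-1.47 to 0.21), and fell short of 1.5-fold with a pseudocount of 2 CPM.

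In the DNA damage and chromatin list none of the 12 genes passed 1.5-fold upward and RNF138 alone passed downward, beside 5.38% and 5.09% of all genes, with a median change of 0.03. RNF126 is in this list and passed upward with edgeR TMM factors (0.59). Of the 12 genes of the SPRY class 11 had a change above 0, beside 2684 of the 5320 genes, with a median of 0.22. In this class only TRIM26 and TRIM65 had an interval above 0, and only TRIM68 had one below. The other signs were not resolved by their counts. Of the 4 genes with a SPRY domain outside the class, TRIM14 was above 0 (0.19) and TRIM9 (-0.13), TRIM16 (-0.24) and TRIM16L (-0.16) were below. Past 1.5-fold were 1 upward (TRIM26) and 1 downward (TRIM68), beside 5.38% and 5.09% of all genes. The change was 0.36 (0.10 to 0.62) in RNF26, 0.30 (0.10 to 0.51) in RNF187 and 0.29 (0.08 to 0.51) in TRIM65. These 3 well counted genes were below 1.5-fold, with intervals above 0.

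**Figure D4:**
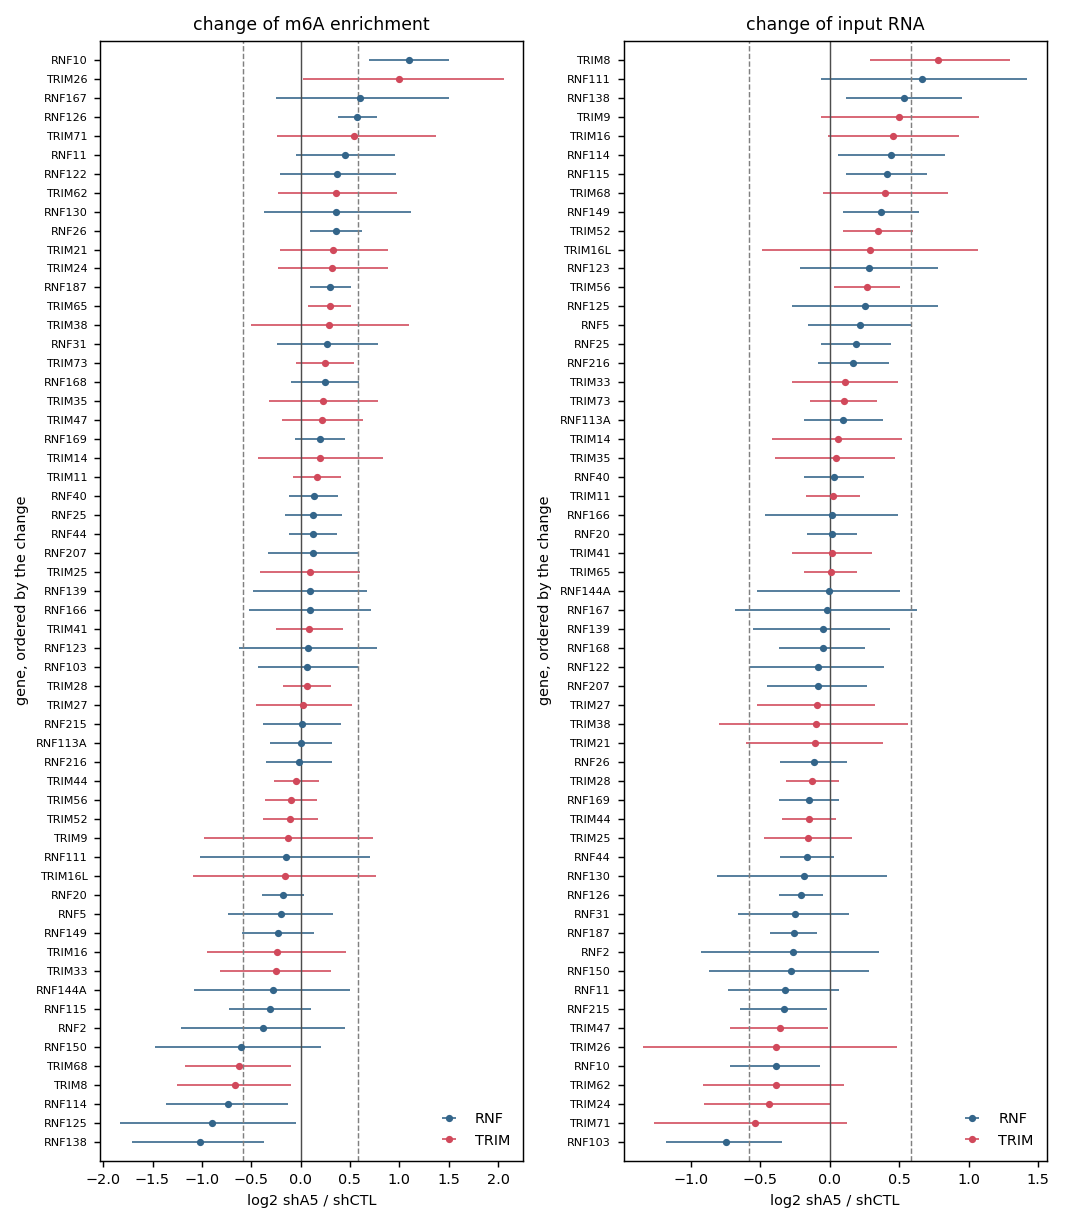
Change of m6A enrichment (left) and change of input RNA (right) of the 58 members, log2 of shA5 over shCTL, each ordered by its own value, with RNF genes in blue and TRIM genes in red; bars are exact 95% counting intervals and dashed lines mark 1.5-fold. RNF138 has the lowest change of enrichment and the 3rd highest change of input, and the same input counts enter both panels with opposite sign.

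Input RNA of members differed little between the populations. It was at least 1.5-fold higher in shA5 in 2 of 58 members (3.45%), beside 3.44% of all genes, and at least 1.5-fold lower in 1 (1.72%), beside 6.43%. No correlation with the change of enrichment is given, as both contain the input counts. The median change was -0.01, beside -0.02 for all genes, with 28 members above 0 and 30 below, beside 2527 and 2793 of all genes. TRIM8 was the highest at 0.78 (0.29 to 1.30). RNF111 followed at 0.67 (-0.06 to 1.42), from 34 input counts in shCTL and 32 in shA5, and had 0.48 when its main transcript alone was used. RNF138 had 0.53 (0.12 to 0.95), TRIM9, a neuronal ligase, 0.50 (-0.06 to 1.07), and TRIM16, which marks damaged lysosomes, 0.46 (-0.01 to 0.93), or 0.61, past 1.5-fold, with its main transcript alone. Of these 5, the intervals of TRIM8 and RNF138 exclude 0. TRIM16 shares 73.4% of its 25-base stretches with other genes, 66.2% with TRIM16L, so its counts are uncertain.

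RNF103, a ligase in the degradation of endoplasmic reticulum proteins, was the only member lower by 1.5-fold. It had 193 input and 321 m6A-IP counts in shCTL, and 67 and 159 in shA5. Its input was lower in shA5 by log2 -0.75 (-1.18 to -0.35) and its m6A-IP by -0.68 (-0.97 to -0.41), so both kinds of library moved together and its enrichment was -0.08 in shCTL and -0.02 in shA5. RNF103 overlaps a readthrough gene that joins it to CHMP3, over 508 bases. TRIM71 had an input change of -0.54 (-1.27 to 0.13), TRIM24 one of -0.44 (-0.90 to 0.01), and TRIM62, a regulator of cell polarity, one of -0.39 (-0.91 to 0.10). The intervals of these 3 include 0, and that of RNF10, at -0.39 (-0.72 to -0.07), does not.

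Further genes of ubiquitin transfer were taken from lists fixed together with the members. Of 58 RING and TRIM genes under other symbols 57 were listed and 26 had enough counts. In shCTL 3 of the 26 were enriched and 15 depleted (22.5% and 30.3% of all genes), with a median of -0.69. In shA5 3 were enriched and 12 depleted (24.3% and 31.7% of all genes), with a median of -0.45. Their medians were thus lower than those of the RNF and TRIM members. ZNRF2, a membrane-bound ligase, was highest at 0.96 in shCTL and 0.92 in shA5, and MKRN1, a zinc finger ligase, was lowest at -2.14 and -2.55. For the change of enrichment 2 were higher and 2 lower, beside 5.38% and 5.09% of all genes, from UHRF1, which keeps DNA methylation through replication, at 0.68 (-0.21 to 1.62) to CBL, which acts on receptor tyrosine kinases, at -0.71 (-1.25 to -0.19). For input none was higher and 3 were lower, beside 3.44% and 6.43% of all genes, from RING1, a Polycomb ligase, at 0.26 to ZNRF3, which removes Wnt receptors, at -0.73 (-1.37 to -0.14).

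Of 36 E1 and E2 enzymes 34 were listed and 24 had enough counts. In shCTL 2 were enriched and 9 depleted (22.5% and 30.3% of all genes), with a median of -0.40. In shA5 1 was enriched and 7 depleted (24.3% and 31.7% of all genes), with a median of -0.46. UBE2H was highest in shCTL at 1.32 (0.86 to 1.84), and UBE2O, a large E2 that also acts as a ligase, was highest in shA5 at 0.96 (0.89 to 1.04). UBE2T, the E2 of the Fanconi anaemia pathway, was lowest in both, at -1.91 and -1.87. The change of enrichment was past 1.5-fold downward in 3 and upward in none, beside 5.09% and 5.38% of all genes, from UBE2Z at 0.56 (0.29 to 0.84) to UBE2C at -1.04 (-1.95 to -0.19). UBE2C, the E2 of the anaphase-promoting complex, also had the highest input change, 1.02 (0.35 to 1.74), from 34 counts in shCTL and 41 in shA5. UBE2E1 had the lowest, -0.58 (-1.11 to -0.07).

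Features of the main transcript, the one with most counts, were set beside m6A enrichment for 57 members and 5278 of all genes. The values are Spearman correlations across genes, which are not independent and share libraries and depth, out of 36 relations computed for each of 4 sets of genes. Enrichment was lower where a transcript had more exons, with rho -0.35 in shCTL and -0.32 in shA5 for members, and -0.26 in both for all genes. Over the 33 RNF genes rho was -0.21 and -0.15, and over the 24 TRIM genes -0.46 and -0.41. RNF26 and RNF113A, with a single exon, were both among the enriched, as was TRIM52 with 2 exons. RNF139, also with 2 exons, had 0.36 and 0.45, short of 1.5-fold. Of the members with 3 exons TRIM56 was enriched, and RNF11 and RNF166 were below 0 in both populations. RNF123, with 39 exons, was depleted at -0.94 and -0.87. RNF40, with 20 exons, was enriched all the same. The length of the longest exon had no such relation in members (rho 0.03 and -0.02). RRACH sites per kb, with a median of 12.8 in members and 13.3 in all genes, had rho 0.18 and 0.19 in members and -0.04 and -0.06 in all genes. TRIM21 had the most, 20.2 per kb, and RNF26, the most enriched member by the mean of both populations, had 10.8.

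**Figure D5:**
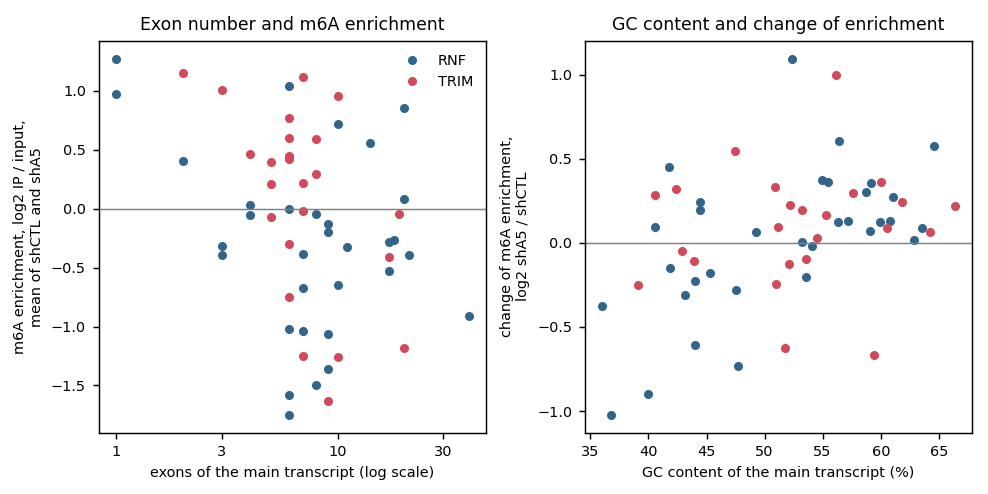
Left, m6A enrichment (mean of shCTL and shA5) against the number of exons of the main transcript; right, the change of m6A enrichment against its GC content, for 57 members, RNF in blue and TRIM in red. The single-exon genes RNF26 and RNF113A lie high on the left, and RNF138 and RNF125 lie low at small GC content on the right.

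GC content went with enrichment more weakly in members (rho 0.16 in shCTL and 0.22 in shA5) than in all genes (0.36 and 0.39). The change of enrichment, in contrast, had rho 0.39 with GC content in members and 0.17 in all genes, with 0.53 over the 33 RNF and 0.11 over the 24 TRIM genes. RNF138 and RNF125, with the lowest changes, had a GC content of 36.8% and 40.0%. RNF126 had 64.6% and RNF167 56.4%. Other members went the other way: RNF10 had 52.4%, below the median of 53.2% over members, TRIM8, with a lower enrichment in shA5, had 59.4%, and TRIM71 and RNF11, with changes of 0.55 and 0.45, had 47.4% and 41.7%. The part of base composition in these changes was not tested.

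Exons of the main transcript overlapped exons of another annotated gene in 25 of the 58 members, on the same strand in 9 and on the opposite strand in 22. The main transcript of TRIM16L is not in the annotation used. Its overlaps and shared stretches were therefore not checked, and it counts among the members without overlap. Whether the counting used strand is not given in the sources used here, so reads of a gene and its antisense partner cannot be told apart. RNF10 overlaps the antisense gene COQ5 over 79 bases and an unnamed gene on its own strand over 261 bases, out of 3814 bases. RNF26, RNF40 and TRIM52 overlap antisense genes over 507, 2096 and 1776 bases. Of the other highest and lowest members, TRIM21, TRIM56, RNF114 and RNF144A overlap none. Most counts of a gene fell on 1 transcript: 47 of the 58 members had at least 90% of their counts on the main transcript, and 33 had a single transcript listed.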

How the data were processed

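The counts deposited by the authors are whole numbers for each Ensembl transcript, not normalized, with a transcript length column (unit other: bases). The submitters' processing notes name bcl2fastq 2.0, fastp 0.23.2, HISAT2, SAMtools 1.9 and MACS2 with hg38. The study's methods name StringTie for gene quantification, and the rule for shared reads and the use of strand are not given. Counts were summed per gene symbol and scaled by library totals, with a pseudocount of 0.5 CPM and a mean count of 50 or more across libraries. Intervals were exact at 95% (Clopper-Pearson, conditional odds ratio, Poisson). No p-values were computed, since no group has a replicate.

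Members and lists were chosen with earlier results of these data known. Named were the 5 highest and 5 lowest members by mean enrichment, by its change and by input change, the 5 highest by input per kb, the DNA damage and chromatin list, and the extremes of the outside lists. Other named genes were chosen after their values were seen.

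Alternatives were edgeR 4.0.16 TMM and DESeq2 1.42.0 size factors (R 4.3.3), pseudocounts of 0.1 and 2 CPM, means of at least 10 or 200 counts or none, a 2-fold threshold, main transcripts alone, and members without overlapping exons. Features, positions and sequences came from hg38 with Gencode release 44. Transcripts were compared by stretches of 25 bases. Steps were tested on simulated data. Python 3.11.15, numpy 2.4.6, pandas 2.3.3, scipy 1.17.1 and matplotlib 3.10.9 were used.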

Additional observations from a re-analysis of the deposited data

Results flagged for a closer look

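RNF126 was on opposite sides of 0 in the 2 populations. Its m6A enrichment was -0.41 (-0.53 to -0.29) in shCTL and 0.16 (0.01 to 0.31) in shA5, and both counting intervals exclude 0. The difference, 0.57 on the log2 scale, was not tested against replicates, since each group has 1 library.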

How the results depend on the processing

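Of 316 values recomputed under an alternative, 282 stayed within their limits (1.5 times for numbers of members, the 95% interval for single genes and medians) and 34 moved. The median enrichment of members changed sign: in shCTL from -0.20 to 0.33 with a mean count of 200 or more, and in shA5 from 0.06 to -0.0042 with a mean count of 10 or more and also without members that overlap another gene. All 200 values of named members stayed within their counting intervals, which are wide at low counts. They were recomputed only under the edgeR and DESeq2 factors, the pseudocounts and main transcripts alone. Under edgeR TMM factors, DESeq2 size factors, pseudocounts of 0.1 and 2 CPM and main transcripts alone, all 12 numbers and medians of members stayed within limits. The factors were computed apart for the inputs and for the m6A-IP libraries, so they did not rescale m6A-IP against input. The TMM factors lay between 0.997 and 1.003, so little movement was possible under them. No paired analysis was possible because there is a single input and m6A-IP pair per population. For want of replicates, none could be left out in turn either.

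The count filter sets how many members are counted. With a mean count of 10 or more, 27 of 87 members were depleted in shCTL, beside 35.8% of all genes. In shA5 20 were enriched and 24 depleted, beside 21.3% and 37.8%. Enrichment was higher in shA5 in 12 and lower in 11, beside 12.6% and 13%. Input was higher in 6 and lower in 6, beside 9.3% and 12.5%. With a mean count of 200 or more, 1 of 25 members was depleted in each population. Of all genes 21.7% were depleted in shCTL and 23.7% in shA5. The median enrichment of members was then 0.33 in shCTL and 0.50 in shA5. Enrichment was higher in shA5 in 1 member (RNF10) and lower in 0, beside 1.65% and 1.08% of all genes. Input was higher in 0 and lower in 0, beside 1.08% and 3.33%. Without a filter, genes needed more than 3 counts in a library compared. In shCTL 19 of 109 members were then enriched and 38 depleted, beside 20.3% and 37.9% of all genes. In shA5 29 of 108 were enriched and 33 depleted, beside 22.9% and 38.4%. Enrichment was higher in shA5 in 23 of 113 and lower in 18, beside 18.9% and 18.3%. Input was higher in 11 of 107 and lower in 13, beside 12.7% and 17.5%. With 2-fold as threshold, a stricter one, 4 of the 58 members were enriched and 7 depleted in shCTL, and 5 were enriched in shA5. At 2-fold, 1 had higher and 1 lower enrichment in shA5, and 0 had higher and 0 lower input. The shares of all genes at 2-fold are not given, so these counts do not compare members with all genes. Without members that overlap another gene, 33 of the 58 members were left, among them TRIM16L, whose overlap could not be checked. Of these, 6 were enriched and 7 depleted in shCTL, beside 22.5% and 30.3% of all 5320 genes, overlapping or not. In shA5 7 were depleted, beside 31.7%, and 0 had lower input, beside 6.43%. The count filter uses the m6A-IP counts that also enter enrichment, so the medians at 200 or more counts are not independent of it. The cause of their shift was not tested. The shA5 input, with the fewest counts, limits the precision of both changes.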
